A study of Mus musculus with 16 samples.

Results

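YAP1 and WWTR1 (TAZ), the TEAD factors that they bind and a set of their target genes were followed in mouse hair follicle stem cell organoids with and without N1-acetylspermidine (N1-AcSpd). The 10 genes were taken from a list by symbol and matched to the gene identifiers of the count table: the coactivators Yap1 and Wwtr1, the factors Tead1, Tead2, Tead3 and Tead4, and the targets Ccn1 (formerly Cyr61), Ccn2 (formerly Ctgf), Ankrd1 and Amotl2. All 10 were among the 32989 identifiers in the table. A mean count of at least 5 per library was asked of a gene before it was tested, and 9 of the 10 reached it, as did 19049 genes in all; Ankrd1 did not.

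The study compared α6+/CD34− progenitors with α6+/CD34+ hair follicle stem cells (HFSCs) sorted from the same organoids, untreated or given N1-AcSpd, an acetylated polyamine. RNA was read from the 3′ end with a random tag on each starting molecule (a UMI, unique molecular identifier), and 16 libraries of 15480075 to 29074855 UMIs were deposited. They formed 4 groups of 4: untreated progenitors, N1-AcSpd progenitors, untreated HFSCs and N1-AcSpd HFSCs. All 4 C57BL/6J mice gave 1 library to every group, so values of 1 mouse are not independent between groups.

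Per the study's methods, the cells were epidermal cells of mice of both sexes in telogen, the resting phase of the hair cycle. Ages were given only as ranges of postnatal days, and no sex or age was tied to a library. Titles of the untreated libraries carry the label WT. The cells of all 4 groups grew for 2 weeks as 3D–3C organoids in Matrigel, and the treated ones received N1-AcSpd for 72 h. Medium with EGF, FGF2, VEGF and Y27632 was shared by all groups. Y27632 inhibits ROCK, a kinase of the actin cytoskeleton, and no group without it was analysed here. Progenitors and HFSCs came out of the same culture, and neither was freshly isolated from skin.

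YAP and TAZ are transcriptional coactivators without a DNA-binding domain of their own, and they act mostly through TEAD1 to TEAD4. Of the Hippo kinases, MST1/2 activate LATS1/2, and LATS1/2 phosphorylate YAP and TAZ and thereby keep them out of the nucleus. The activity of YAP and TAZ is therefore set largely at the protein level. It answers to cell contact, cell shape and the stiffness of the surroundings. In skin they are known for the growth of basal keratinocytes. Messenger RNA levels of YAP and TEAD do not read that activity directly, and their targets are commonly used to do so.

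TEAD factors recognise the hexamer GGAATG, which reads CATTCC on the opposite strand. Both spellings were searched in windows from 250 bases before to 50 bases after annotated gene starts (RefSeq, GRCm38.p6). The hexamer was present in 14.7% of 32851 windows and in at least 1 window of 16.6% of 27025 genes. Of the members, 7 had a window and 6 of them held the hexamer (8 of 10 windows), Tead2 being the exception; Tead1, Tead4 and Ccn2 were not matched to a window. The stretches of 30 bases around the hexamer are shown for both coactivators and for the targets, since these are the coactivators and the genes used as their readout. They are written 5′ to 3′ on the strand of the gene with the hexamer in capitals.
Yap1, chr9:8004720-8004749, minus strand: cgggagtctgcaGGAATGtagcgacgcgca
Wwtr1, chr3:57576029-57576058, minus strand: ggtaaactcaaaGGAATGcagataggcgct
Ccn1, chr3:145650071-145650100, minus strand: cgcgccaaccaaCATTCCtgagatgtttga
Amotl2, chr9:102717727-102717756, plus strand: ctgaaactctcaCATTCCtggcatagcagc
Ankrd1, chr19:36120037-36120066, minus strand: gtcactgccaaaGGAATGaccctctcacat
Ankrd1, chr19:36119950-36119979, minus strand: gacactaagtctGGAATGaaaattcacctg
The hexamer stood 103 bases before the start in Ccn1, 65 in Amotl2, 141 in Yap1 and 170 in Wwtr1, and Ankrd1 held it 210 and 123 bases before. These distances are to the start that RefSeq gives for each window, which can differ from the outermost start of the gene spans given with each gene below; the Amotl2 site and both Ankrd1 sites lie inside those spans. A match of 6 letters describes the sequence and is not a mapped binding site.

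Levels are given as CPM, the count divided by the library's total in units of 1000000 after scaling by TMM, a factor that centres each library on the bulk of its genes. Summed levels of 7 HFSC markers (the sort markers Cd34 and Itga6 with Krt15, Sox9, Nfatc1, Lhx2 and Tcf3) were 132.7 to 167.4 CPM in the progenitor libraries and 432.1 to 683.0 CPM in the HFSC libraries. Krt15 made up most of that sum in HFSCs (mean 392.8 CPM untreated), Cd34 was itself used for the sort, and Itga6 was lower in HFSCs in both conditions (-0.34 and -0.17, log2, edgeR adjusted p = 0.0009 and 0.0437). The summed level of 6 keratinocyte differentiation markers was 1000 to 1526 CPM in progenitors and 280 to 382.1 CPM in HFSCs. Counts of Cd34 and of the differentiation marker Sbsn were nearly identical to those of overlapping gene models in all 16 libraries, so both are uncertain. The 4 basal keratinocyte markers summed to 5735 to 6969 CPM over all libraries. Of other cell types, 8 fibroblast markers summed to 0.602 to 1.6 CPM in progenitors and 0.171 to 0.768 CPM in HFSCs, 6 immune markers to 0.817 to 3.38 CPM, and 6 melanocyte markers to 9.38 to 12.6 CPM. The melanocyte sum was mostly Pmel (8.83 to 11.7 CPM), which overlaps Cdk2 and Dgka on the opposite strand. It is not read as a measure of melanocytes. The 5 endothelial markers summed to 1686 to 2054 CPM, but that sum was nearly all Pecam1; whether those counts come from Pecam1 transcripts was not tested, and the sum is not read as a measure of endothelial cells. Adgre1, Cd207, Sox10, Cdh5 and Emcn had no line in the count table. In such bulk samples fewer cells of a type and less RNA per cell cannot be told apart.

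The comparison of HFSCs with progenitors asked which genes separate the stem cells from their progeny, and it was made once in untreated and once in N1-AcSpd cells. Ccn2 was higher and Amotl2 lower in HFSCs in both. Tead2 was higher and Tead1 lower in untreated HFSCs, and Wwtr1 was lower in N1-AcSpd HFSCs. Thus 4 of 9 members were called in untreated cells, 2 higher and 2 lower, and 3 of 9 in N1-AcSpd cells, 1 higher and 2 lower. A call is a Benjamini-Hochberg adjusted p under 0.05 over all 19049 genes in the quasi-likelihood test of edgeR. Of all tested genes 32.1% were called in untreated cells, 16.1% higher and 16.1% lower, and 33.3% in N1-AcSpd cells, 16.5% higher and 16.8% lower, so the share of members called lay near that of any tested gene. The median log2 fold change of the 9 members was 0.14 in untreated cells, beside 0.02 over all tested genes, and -0.03 in N1-AcSpd cells, beside -0.01.

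**Figure D1:**
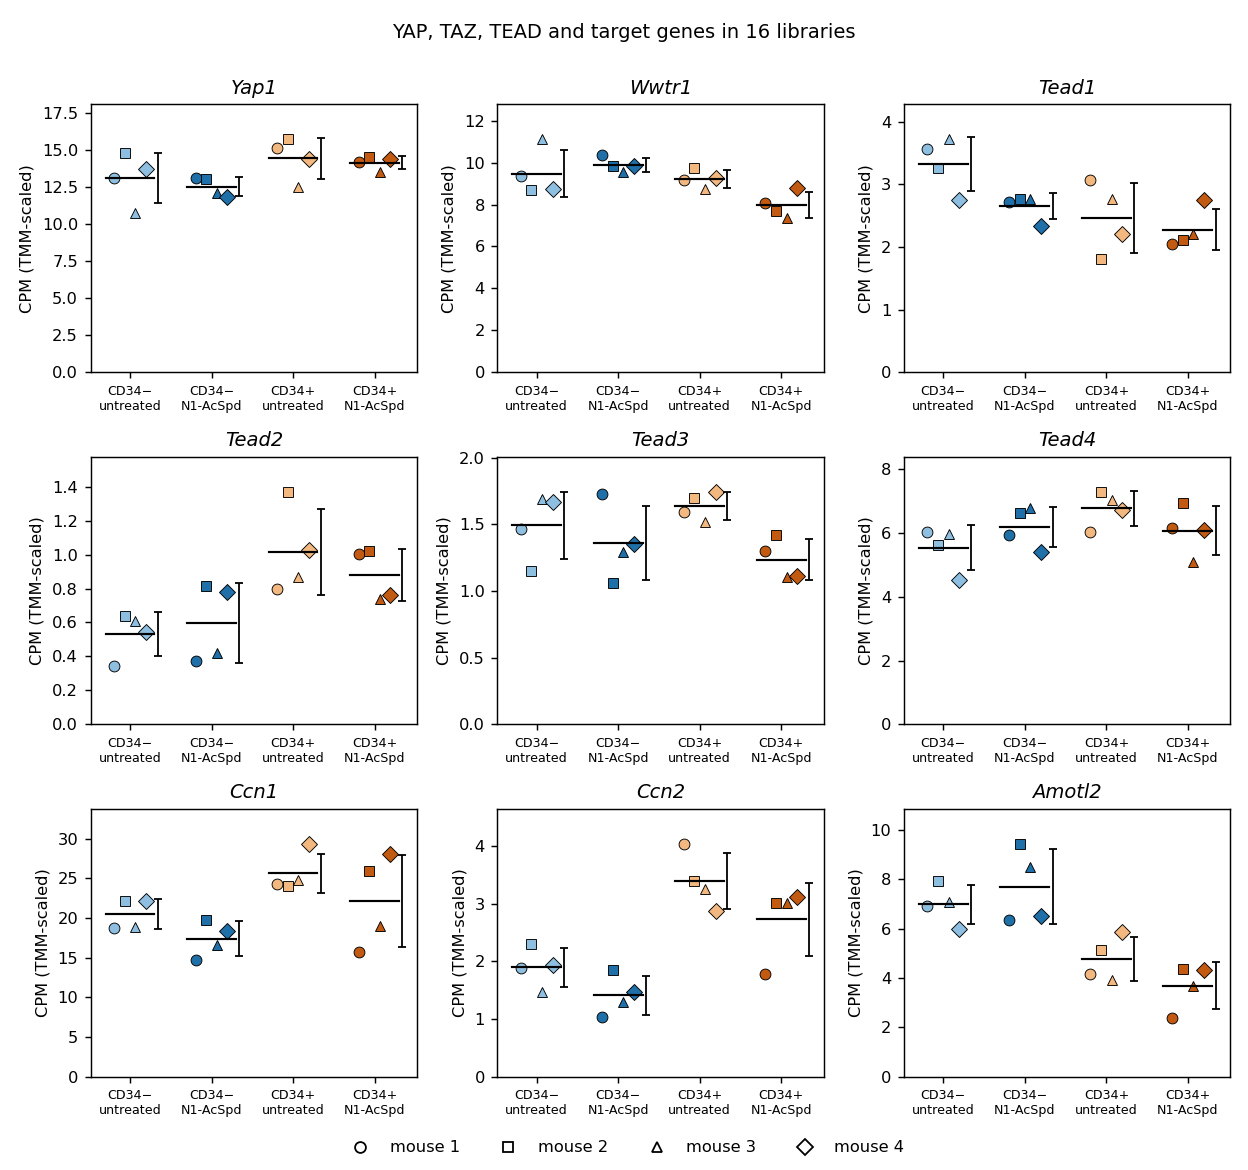
Level of 9 members in each library (y axis, TMM-scaled CPM from 0; x axis, the 4 groups). Symbols mark the mouse, horizontal lines the mean of 4 libraries and vertical bars the SD. Ccn2 stands between 2.88 and 4.04 CPM in untreated HFSCs and at or below 2.30 CPM in all progenitor libraries, whereas Amotl2 is at or above 6.00 CPM in every progenitor library and at or below 5.86 CPM in every HFSC library.

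Ccn2 (ENSMUSG00000019997, chromosome 10, 24595442 to 24598683, plus strand, GRCm38) encodes CTGF, a secreted matricellular protein and one of the most used readouts of YAP. In untreated progenitors of mice 1 to 4 it stood at 1.89, 2.30, 1.47 and 1.94 CPM, and in untreated HFSCs at 4.04, 3.40, 3.25 and 2.88 CPM. With N1-AcSpd the progenitors held 1.03, 1.85, 1.29 and 1.48 CPM and the HFSCs 1.78, 3.02, 3.01 and 3.11 CPM. The untreated groups did not overlap, as was true of 32.2% of all tested genes. In N1-AcSpd cells 3 of the 4 HFSC libraries were above every progenitor library, and that of mouse 1 was not. HFSCs exceeded progenitors by 0.84 ± 0.21 on the log2 scale (SE, n = 4 mice per group, edgeR adjusted p = 0.00716, 1.79-fold) in untreated cells and by 0.94 ± 0.21 (edgeR adjusted p = 0.00322, 1.92-fold) in N1-AcSpd cells, and within the mouse the level was higher in 4 of 4 animals in both. Of all tested genes 49.5% untreated and 50.3% with N1-AcSpd had 1 sign in 4 of 4 mice. The same shares stand beside the other members. The untreated Ccn2 call was lost when mouse 3 was left out of all groups (0.75, edgeR adjusted p = 0.0630). Its N1-AcSpd call was kept in all 20 leave-out runs, with edgeR adjusted p from 0.000629 to 0.0395.

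Ccn1 (ENSMUSG00000028195, chromosome 3, 145646976 to 145649981, minus strand) encodes CYR61, a matricellular protein of the same family, and carries the CATTCC shown above in its promoter window. Untreated progenitors held 18.8, 22.1, 18.9 and 22.2 CPM and untreated HFSCs 24.3, 24.1, 24.8 and 29.3 CPM. In N1-AcSpd cells these were 14.7, 19.8, 16.6 and 18.4 CPM in progenitors and 15.7, 25.9, 19.0 and 28.0 CPM in HFSCs. Untreated HFSC libraries were all above the untreated progenitor libraries, while the N1-AcSpd groups overlapped. The difference between HFSCs and progenitors was 0.32 ± 0.16 (SE, log2, edgeR adjusted p = 0.141) untreated and 0.35 ± 0.16 (edgeR adjusted p = 0.108) with N1-AcSpd. Neither was called, and HFSCs were higher in 4 of 4 mice each time. With mouse as a block both differences passed the threshold, at 0.33 with an edgeR adjusted p of 0.0319 and at 0.33 with 0.0303. The N1-AcSpd difference also passed without the N1-AcSpd HFSC library of mouse 1 (0.50, edgeR adjusted p = 0.0120).

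Amotl2 (ENSMUSG00000032531, chromosome 9, 102716672 to 102733418, plus strand) encodes a member of the angiomotin family, which is induced by YAP and itself binds and restrains it. Untreated progenitors held 6.92, 7.92, 7.10 and 6.00 CPM, and untreated HFSCs 4.15, 5.15, 3.90 and 5.86 CPM. With N1-AcSpd the progenitor libraries stood at 6.35, 9.44, 8.51 and 6.52 CPM and the HFSC libraries at 2.38, 4.38, 3.68 and 4.34 CPM. The 2 cell types did not overlap in either condition, and 34.4% of all tested genes shared that separation in N1-AcSpd cells. The log2 difference was -0.55 ± 0.20 (SE, edgeR adjusted p = 0.0456) untreated and -1.07 ± 0.20 (edgeR adjusted p = 0.000816) with N1-AcSpd, lower in HFSCs in 4 of 4 mice in both, and its sign was opposite to that of Ccn1 and Ccn2. The N1-AcSpd call was kept in all 20 leave-out runs, at adjusted p from 0.000985 to 0.0149. In untreated cells 11 of 20 runs took the difference above the threshold, with values from -0.59 to -0.46 and edgeR adjusted p up to 0.232. Among them were the runs without the untreated progenitor or the untreated HFSC library of mouse 1, 2 or 3. The others left out the N1-AcSpd progenitor or HFSC library of mouse 3, or the whole of mouse 1, 2 or 3. Scaling by library totals ended the untreated call too (-0.43, edgeR adjusted p = 0.118).

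Ankrd1 (ENSMUSG00000024803, chromosome 19, 36111961 to 36120099, minus strand) encodes CARP, a nuclear ankyrin repeat protein best known from muscle and a strong YAP target in many cultured cells. A single UMI was counted in 16 libraries, in the untreated progenitors of mouse 4. The other 15 libraries held 0, and 3 UMIs, the limit that a count of 0 allows, would correspond to 0.106 to 0.192 CPM. Its promoter window holds the hexamer 2 times, as printed above, and no fold change was computed.

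Tead1 (ENSMUSG00000055320, chromosome 7, 112679318 to 112906807, plus strand) stood at 3.57, 3.26, 3.72 and 2.75 CPM in untreated progenitors and at 3.07, 1.81, 2.76 and 2.21 CPM in untreated HFSCs. In N1-AcSpd cells it stood at 2.72, 2.77, 2.77 and 2.34 CPM in progenitors and at 2.04, 2.11, 2.21 and 2.76 CPM in HFSCs. The cell types overlapped in both conditions, and within the mouse HFSCs were lower in 4 of 4 animals untreated and in 3 of 4 with N1-AcSpd. The log2 difference was -0.43 ± 0.16 (SE, edgeR adjusted p = 0.0496) untreated and -0.22 ± 0.16 (edgeR adjusted p = 0.331) with N1-AcSpd. With mouse as a block the untreated difference missed the threshold (-0.44, edgeR adjusted p = 0.0544), as it did with library totals (-0.32, edgeR adjusted p = 0.139). The same happened in 16 of 20 leave-out runs (-0.52 to -0.31, edgeR adjusted p up to 0.217). The exceptions were those without the untreated progenitor library of mouse 4 or the untreated HFSC library of mouse 1 or 3. The run without the N1-AcSpd HFSC library of mouse 4 was another exception. A transcript from the opposite strand at the Tead1 start, 2310014F06Rik, had 735 UMIs to the 911 of Tead1, and since the strand setting of the counting is not given in the sources used here, reads in the shared stretch cannot be assigned between them.

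Tead2 (ENSMUSG00000030796, chromosome 7, 45215753 to 45233644, plus strand) was counted at 8 to 27 UMIs per library. Of the members with a promoter window, it alone held no hexamer in any window. Untreated progenitors held 0.344, 0.638, 0.606 and 0.541 CPM and untreated HFSCs 0.796, 1.37, 0.867 and 1.03 CPM. With N1-AcSpd the values were 0.371, 0.816, 0.418 and 0.779 CPM in progenitors and 1.00, 1.02, 0.736 and 0.763 CPM in HFSCs. The untreated groups were separate and the N1-AcSpd groups overlapped. HFSCs were higher by 0.93 ± 0.30 (SE, log2, edgeR adjusted p = 0.0286) untreated, in 4 of 4 mice, and the N1-AcSpd difference of 0.56 ± 0.29 (edgeR adjusted p = 0.170), positive in 3 of 4, was not called. At these counts 8 of 20 leave-out runs gave no call for untreated cells (0.75 to 1.07, adjusted p up to 0.114), those without the untreated progenitor library of mouse 1 or 4, the untreated HFSC library of mouse 2 or 4, or any whole mouse.

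Tead3 (ENSMUSG00000002249, chromosome 17, 28331671 to 28350817, minus strand) and Tead4 (ENSMUSG00000030353, chromosome 6, 128224288 to 128300823, minus strand) complete the family. Tead3 ranged from 1.06 to 1.75 CPM and Tead4 from 4.51 to 7.29 CPM over all libraries. Tead3 differed between cell types by 0.13 ± 0.16 (SE, log2, 95% interval -0.22 to 0.48, edgeR adjusted p = 0.720) untreated and -0.14 ± 0.16 (-0.49 to 0.22, edgeR adjusted p = 0.722) with N1-AcSpd. Tead4 held 6.02, 5.62, 5.97 and 4.51 CPM in untreated progenitors and 6.03, 7.29, 7.04 and 6.73 CPM in untreated HFSCs, which just did not overlap. The untreated difference of 0.29 ± 0.11 missed the threshold (edgeR adjusted p = 0.0625) and the N1-AcSpd difference was -0.03 ± 0.11 (edgeR adjusted p = 0.911). Without the untreated HFSC library of mouse 1 the untreated Tead4 difference was called (0.34, edgeR adjusted p = 0.0461), as it was without the N1-AcSpd HFSC library of mouse 3 (0.29, edgeR adjusted p = 0.0453).

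Yap1 (ENSMUSG00000053110, chromosome 9, 7931999 to 8004596, minus strand) was counted at 221 to 382 UMIs per library. Untreated progenitors held 13.1, 14.8, 10.8 and 13.7 CPM and untreated HFSCs 15.1, 15.7, 12.5 and 14.4 CPM. With N1-AcSpd they held 13.1, 13.1, 12.1 and 11.8 CPM in progenitors and 14.2, 14.5, 13.6 and 14.4 CPM in HFSCs. HFSCs were higher in 4 of 4 mice in each condition, as was the case in one direction or the other for 49.5% of all tested genes untreated and 50.3% with N1-AcSpd, and the N1-AcSpd groups did not overlap. The differences were small, 0.14 ± 0.09 (SE, log2, 95% interval -0.05 to 0.33, edgeR adjusted p = 0.258) and 0.18 ± 0.09 (-0.01 to 0.36, edgeR adjusted p = 0.147). With mouse as a block the N1-AcSpd difference of 0.18 was called (edgeR adjusted p = 0.0434), which with Ccn1 raised the members called in N1-AcSpd cells from 3 to 5.

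Wwtr1 (ENSMUSG00000027803, chromosome 3, 57455649 to 57575910, minus strand) encodes TAZ. In untreated cells the progenitors held 9.37, 8.68, 11.1 and 8.75 CPM and the HFSCs 9.16, 9.76, 8.72 and 9.30 CPM. With N1-AcSpd the progenitors held 10.4, 9.83, 9.58 and 9.84 CPM and the HFSCs 8.09, 7.68, 7.36 and 8.80 CPM. The untreated groups overlapped throughout, while each N1-AcSpd HFSC library lay below each N1-AcSpd progenitor library. The cell type difference was -0.04 ± 0.08 (SE, log2, 95% interval -0.20 to 0.13, edgeR adjusted p = 0.777) untreated and -0.31 ± 0.08 (edgeR adjusted p = 0.00625, 0.807-fold) with N1-AcSpd, lower in 4 of 4 mice. Leaving out mouse 1 took the N1-AcSpd difference above the threshold (-0.29, edgeR adjusted p = 0.0634), and so did scaling by library totals (-0.19, edgeR adjusted p = 0.0550).

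**Figure D2:**
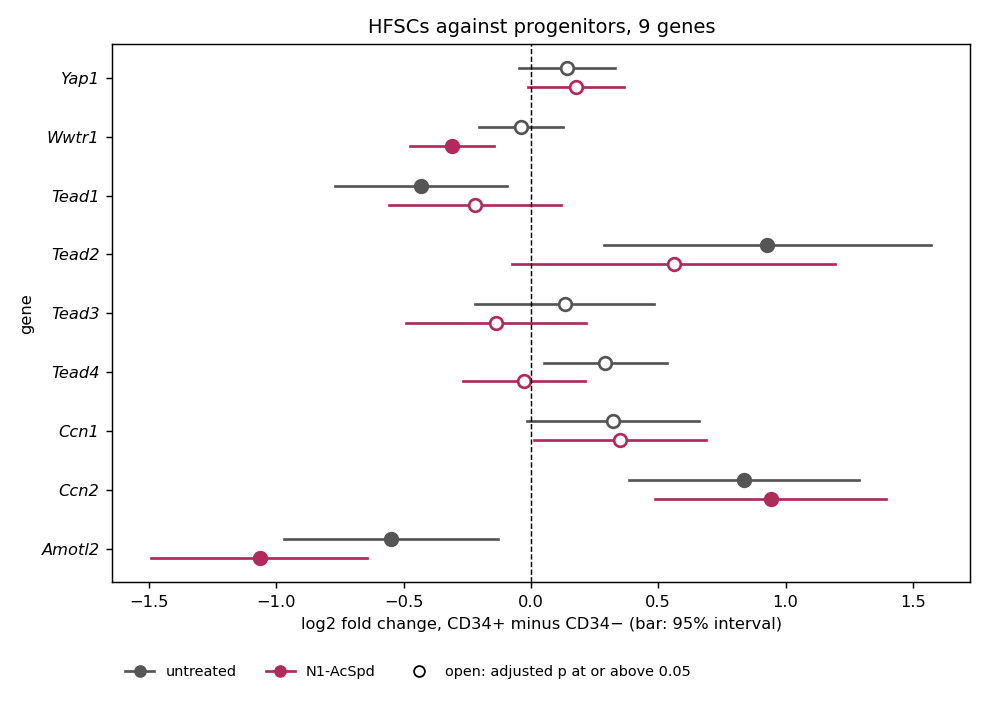
Log2 fold change of HFSCs (CD34+) over progenitors (CD34−) for 9 members (x axis) in untreated and N1-AcSpd cells; bars are 95% intervals and filled circles have an adjusted p under 0.05. Ccn2 (0.84 and 0.94) lies to the right and Amotl2 (-0.55 and -1.07) to the left of 0 in both conditions, and the remaining intervals lie nearer to 0 or cross it in at least 1 condition.

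The summed levels of HFSC and differentiation markers given above moved with the same contrast as these members. Summed fibroblast markers had lower ranges in HFSC libraries, but the ranges overlapped and rested on 3 to 42 UMIs per library. What part these markers had in the members' differences was not tested. Scaling by plain library totals moved the median log2 fold change of all genes to 0.14 in untreated and 0.11 in N1-AcSpd cells. Under it 4861 genes were called higher and 1762 lower in untreated HFSCs, against 3059 and 3064 with TMM, and 4792 and 1904 in N1-AcSpd cells, against 3147 and 3199. Each member kept the sign of its called differences under both scalings.

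Whether the cell type effect itself differed between N1-AcSpd and untreated cells was tested as an interaction. None of the 9 members was called, and neither was any of the 19049 genes in edgeR (0%), where 4.19% had an unadjusted p under 0.05; DESeq2 called 72 genes, and no member among them. Wwtr1 had the smallest p of the members, with an interaction of -0.27 ± 0.11 (SE, log2, edgeR unadjusted p = 0.0261, adjusted p = 1), negative in 4 of 4 mice. The values for Amotl2 (-0.52 ± 0.28, unadjusted p = 0.0830 in edgeR) and Tead3 (-0.27 ± 0.23, unadjusted p = 0.398) were also negative in 4 of 4 mice. How many of all tested genes had the same sign in 4 of 4 mice was not computed for the interaction, so these signs stand without that background. The calls of Wwtr1 with N1-AcSpd alone, and of Tead1 and Tead2 in untreated cells alone, are therefore not shown to differ between the conditions.

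The treatment comparison set N1-AcSpd against untreated cells of the same sorted population. No member was called in either population, where 0.614% of all tested genes were called in progenitors and 0.325% in HFSCs. At an unadjusted p under 0.05 edgeR counted 0 of 9 members in progenitors, beside 13.6% of all tested genes, and 2 of 9 in HFSCs, Wwtr1 and Tead3, beside 13.2%. DESeq2 called no member in either population.

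None of the 3 targets that could be tested passed for treatment. Ccn2 differed by -0.42 ± 0.21 (SE, log2, 95% interval -0.88 to 0.03, edgeR adjusted p = 0.407) in progenitors and by -0.32 ± 0.21 (-0.76 to 0.13, edgeR adjusted p = 0.568) in HFSCs. Ccn1 differed by -0.24 ± 0.16 (-0.58 to 0.10, edgeR adjusted p = 0.563) and -0.21 ± 0.16 (-0.55 to 0.13, edgeR adjusted p = 0.643). Both were lower in 4 of 4 mice in progenitors and in 3 of 4 in HFSCs, where 25.3% and 23.2% of all tested genes had 1 sign in 4 of 4 mice; that makes 7 of 8 differences within a mouse, a pattern of at least 7 of 8 that 11.4% of all tested genes had. Amotl2 differed by 0.14 ± 0.19 (-0.27 to 0.56, edgeR adjusted p = 0.855) in progenitors and by -0.37 ± 0.20 (-0.80 to 0.05, edgeR adjusted p = 0.452) in HFSCs, where it was lower in 4 of 4 mice.

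Mouse 1 gave the lowest of the 4 values in both N1-AcSpd groups for each of Ccn1, Ccn2 and Amotl2, which was seen after the values were known; 6.79% of all tested genes had that pattern. Its N1-AcSpd HFSC library was the deepest of its group, with 26233887 UMIs against 15480075 to 16715068 in the other three. Without that library the treatment difference in HFSCs was -0.14 for Ccn2, -0.06 for Ccn1 and -0.19 for Amotl2.

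Of the coactivators, Wwtr1 was lower with N1-AcSpd in HFSCs in 4 of 4 mice (-0.21 ± 0.08, edgeR unadjusted p = 0.0170, adjusted p = 0.272), with overlapping groups, and differed by 0.06 ± 0.08 in progenitors (edgeR adjusted p = 0.857). Yap1 differed by -0.07 ± 0.09 (95% interval -0.25 to 0.12) in progenitors and by -0.03 ± 0.09 (-0.22 to 0.16) in HFSCs. Of the TEAD factors, Tead3 held 1.59, 1.70, 1.52 and 1.75 CPM in untreated and 1.30, 1.42, 1.10 and 1.12 CPM in N1-AcSpd HFSCs. Those groups did not overlap, as in 6.81% of all tested genes, and the difference of -0.40 ± 0.17 did not pass (edgeR unadjusted p = 0.0427, adjusted p = 0.359). Tead1 differed by -0.33 ± 0.16 in progenitors (edgeR adjusted p = 0.377), lower in 4 of 4 mice, and by -0.11 ± 0.16 in HFSCs (edgeR adjusted p = 0.873). Tead2 and Tead4 differed by 0.17 ± 0.30 and 0.16 ± 0.11 in progenitors and by -0.20 ± 0.29 and -0.16 ± 0.11 in HFSCs, each with an edgeR adjusted p of at least 0.586.

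**Figure D3:**
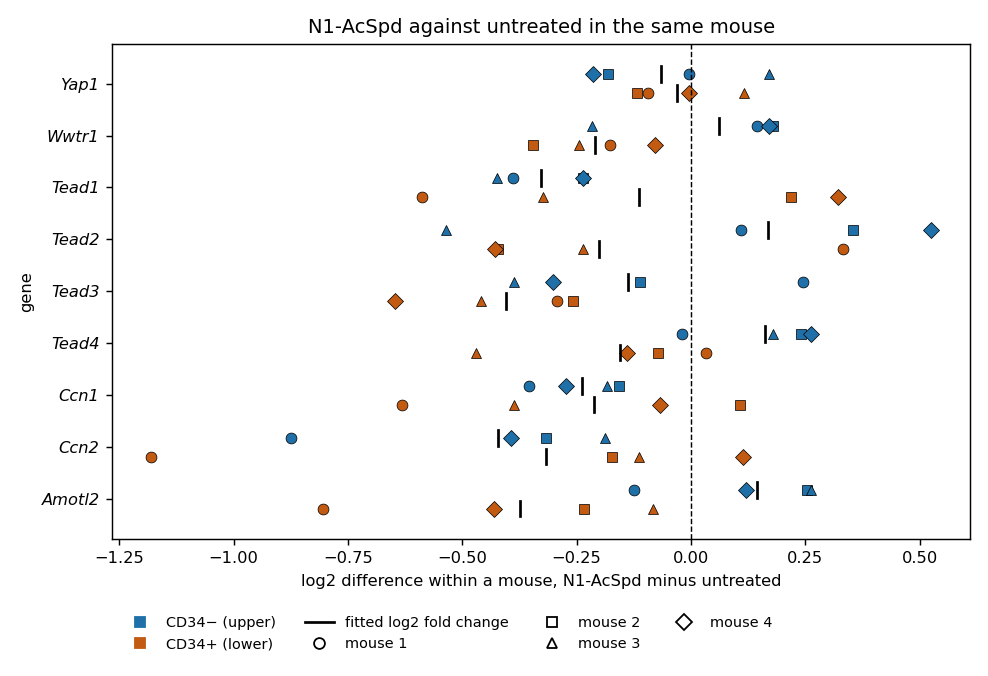
Log2 difference between the N1-AcSpd and the untreated library of the same mouse (x axis) for 9 members, progenitors above and HFSCs below in each line; symbols mark the mouse and black ticks the fitted log2 fold change. Ccn1, Ccn2 and Tead3 lie left of 0 in 7 of 8 differences, and mouse 1 in HFSCs holds the points farthest left for Ccn2 (-1.18), Amotl2 (-0.81) and Ccn1 (-0.63).

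The upstream pathway was described by 15 Hippo kinases and adaptors, all of them tested. In untreated HFSCs 4 of 15 were called: Sav1 and Wwc2 higher, Lats2 and Mob1b lower. In N1-AcSpd HFSCs 8 of 15 were called, with Frmd6, Sav1, Taok2 and Wwc2 higher and Map4k4, Mob1b, Taok3 and Wwc1 lower. These counts stand beside 32.1% and 33.3% of all tested genes. Over the leave-out runs the first ranged from 2 (without mouse 3) to 5 and the second from 4 to 9; the second was 5 without mouse 1 or its N1-AcSpd HFSC library, and 4 without mouse 2, 3 or 4 or the N1-AcSpd HFSC library of mouse 2. Sav1, the scaffold of the MST kinases, differed by 0.45 ± 0.16 untreated and 0.60 ± 0.16 with N1-AcSpd (SE, log2, edgeR adjusted p = 0.0434 and 0.00978), and it overlaps Atl1 and Gm3086 on the opposite strand. Wwc2, a relative of KIBRA, which activates LATS, differed by 0.37 ± 0.08 and 0.23 ± 0.08 (edgeR adjusted p = 0.00277 and 0.0410). Frmd6, a FERM protein upstream of the kinases, differed by 0.31 ± 0.08 with N1-AcSpd (edgeR adjusted p = 0.00660), and Map4k4, a kinase that phosphorylates LATS, by -0.30 ± 0.08 (edgeR adjusted p = 0.0139). Mob1b, an activator of LATS, differed by -0.15 ± 0.03 and -0.16 ± 0.03 (edgeR adjusted p = 0.00207 and 0.000915), and Lats2, a LATS kinase and YAP target, by -0.21 ± 0.06 untreated (edgeR adjusted p = 0.0124). Counts of Mob1b and Lats2 were nearly identical to those of overlapping gene models in every library, so their assignment is uncertain. The median of the list was -0.05 untreated and 0.01 with N1-AcSpd, beside 0.02 and -0.01 over all tested genes, and no member of it was called for treatment.

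Of 10 cofactors and binding partners of YAP and TEAD, 7 could be tested, and the same 4 were called in both conditions, beside 32.1% and 33.3% of all tested genes. Vgll3, a cofactor that binds TEAD, was lower in HFSCs, with a difference of -2.05 ± 0.20 untreated and -2.15 ± 0.20 with N1-AcSpd (SE, log2, edgeR adjusted p = 4.69e-06 and 2.88e-06), at mean levels of 1.39 CPM in untreated HFSCs and 5.78 CPM in untreated progenitors. Vgll4, which also binds TEAD and represses it, was higher by 0.67 ± 0.08 and 0.65 ± 0.08 (edgeR adjusted p = 1.83e-05 and 2.06e-05). Limd1, a LIM protein that binds LATS, was higher by 0.30 ± 0.06 and 0.34 ± 0.06 (edgeR adjusted p = 0.00170 and 0.000557), and Amotl1, the angiomotin relative of Amotl2, was lower, at -0.26 ± 0.06 and -0.19 ± 0.06 (edgeR adjusted p = 0.00349 and 0.0187). The list thus held members in both directions, with a median of 0.20 untreated and 0.32 with N1-AcSpd, beside 0.02 and -0.01 over all tested genes. None was called for treatment. Amot was at 22 UMIs over all libraries, and Vgll1 and Vgll2 had no line in the count table.

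Among 18 further genes that are known to respond to YAP or TEAD in other cells, 16 were tested. In untreated HFSCs 5 were higher (Arhgef17, Asap1, Myof, Nt5e and Rbms3) and 4 lower (F3, Igfbp3, Lats2 and Nuak2), and with N1-AcSpd 4 were higher (Arhgef17, Asap1, Myof and Rbms3) and 4 lower (F3, Gadd45a, Igfbp3 and Nuak2). Of all tested genes 16.1% were called higher and 16.1% lower untreated, and 16.5% and 16.8% with N1-AcSpd. F3, tissue factor, was lower, at -1.58 ± 0.14 and -2.05 ± 0.14 (SE, log2, edgeR adjusted p = 1.65e-06 and 3.00e-07). Nuak2, a kinase, was lower, at -1.33 ± 0.11 and -1.39 ± 0.11 (edgeR adjusted p = 1.46e-06 and 9.07e-07), and Igfbp3, which binds insulin-like growth factors, at -1.39 ± 0.15 and -1.20 ± 0.15 (edgeR adjusted p = 1.14e-05 and 3.08e-05). Myof, a ferlin of the plasma membrane, was higher by 0.40 ± 0.04 and 0.65 ± 0.04 (edgeR adjusted p = 1.62e-05 and 3.31e-07). As with Ccn2 and Amotl2, targets lay on both sides of 0, and the median of the list was 0.07 untreated and 0.02 with N1-AcSpd, beside 0.02 and -0.01 over all tested genes.

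**Figure D4:**
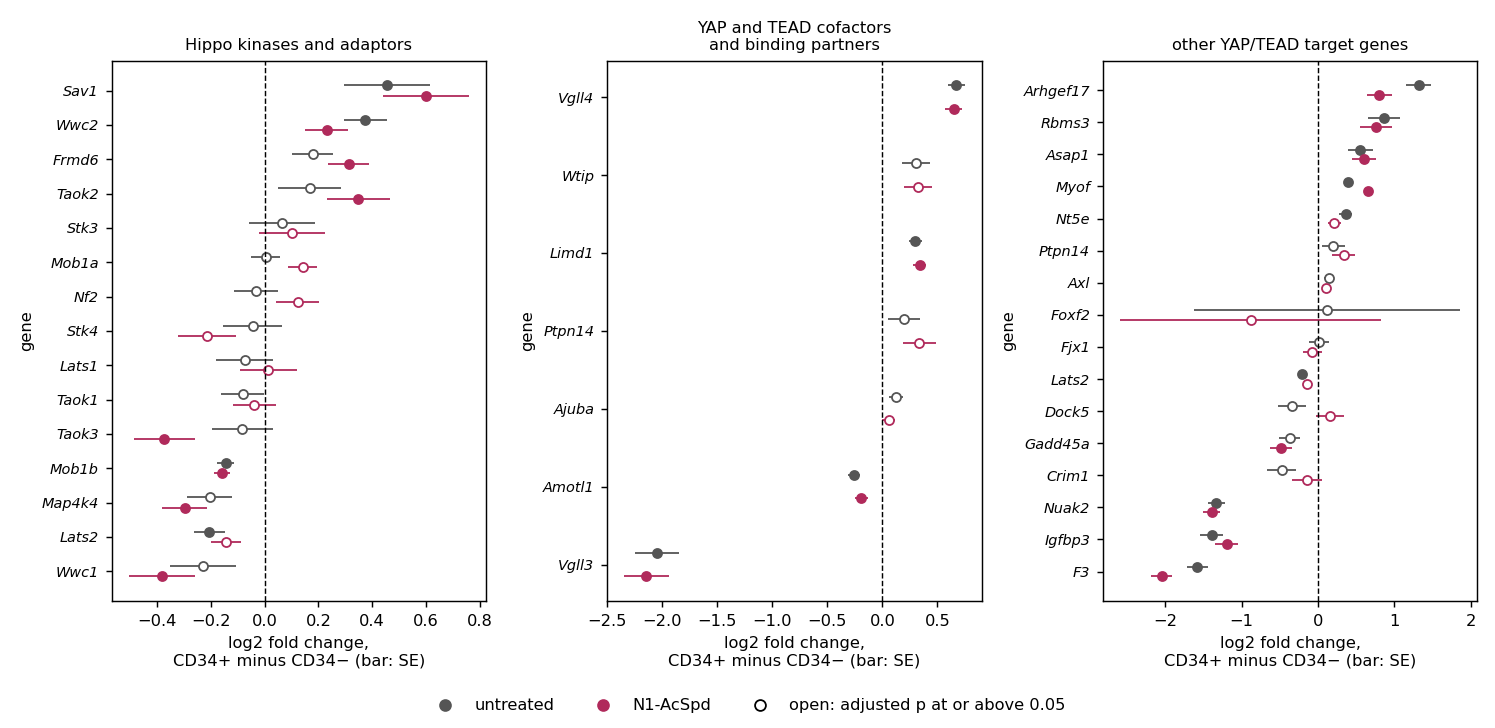
Log2 fold change of HFSCs over progenitors (x axis, bars are SE) for the tested genes of 3 lists, in untreated and N1-AcSpd cells; filled circles have an adjusted p under 0.05, and the x axes differ in range between panels. Genes lie on both sides of 0 in every list, from Vgll3 (-2.15 with N1-AcSpd) to Arhgef17 (1.32 untreated).

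For treatment, 1 of these 16 targets was called in each population. Myof was lower with N1-AcSpd in progenitors (-0.27 ± 0.04, edgeR adjusted p = 0.0188), in 4 of 4 mice, and differed by -0.02 ± 0.04 in HFSCs (edgeR adjusted p = 0.959). Igfbp3 was higher with N1-AcSpd in HFSCs (0.86 ± 0.15, edgeR adjusted p = 0.0353), and in progenitors its difference of 0.66 ± 0.15 did not pass (edgeR adjusted p = 0.0665); it was higher in 4 of 4 mice in each. The interaction was not called for either. These are single calls: in progenitors and in HFSCs alike the count fell to 0 in counts thinned to the smallest library and in 9 and 12 of 20 leave-out runs, respectively, any whole mouse included, and rose to 2 with mouse as a block.

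Genes whose profile over the 16 libraries came nearest to that of a member were sought among those with a mean count of at least 50, by the root mean square (RMS) difference of log2 CPM after centring each gene. Only the 5 members whose group means spanned at least 0.5 on the log2 scale were used. For Ccn2 they were Gpc4, Fas and Irx1, at 0.212, 0.225 and 0.227. For Amotl2 they were Ralgps1, Angptl2 and Arhgdig (0.237 to 0.249), for Ccn1 Vipas39, Mxd4 and Lamb1 (0.131 to 0.151), for Tead1 Gm13777, Csnk2a2 and Gm4997 (0.154 to 0.155), and for Tead2 Thsd7a, Gm44129 and Sirt3 (0.231 to 0.249). Members were left out of the candidates, so none could appear among the nearest genes. Ordered by mean level, Yap1, Ccn1 and Ccn2 shared one order, with untreated HFSCs highest, then N1-AcSpd HFSCs, untreated progenitors and N1-AcSpd progenitors. Neighbouring groups in that order overlapped in all 3. In Amotl2 the order was reversed by cell type, with N1-AcSpd progenitors highest and N1-AcSpd HFSCs lowest, a 2.09-fold range of means, and only the step between untreated progenitors and untreated HFSCs was free of overlap.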

How the data were processed

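RNA of 16 libraries from sorted organoid cells was analysed. According to the study's methods and the submitters' processing notes, the authors demultiplexed reads with FLEXBAR, checked them with FastQC (0.11.7), aligned the second read to mm10 with kallisto (0.45.0), used BEDTools to place tags in genes and counted the unique UMIs of each. The annotation release and the strand setting are not given in the sources used here. The deposited values are these UMI counts, not normalized, and 156050 empty cells were read as 0; the 94 identifiers without a symbol held 0.125% of counts. Symbols and positions came from GENCODE on GRCm38 (mm10), promoter windows from RefSeq.

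Groups and replicate numbers were taken from the labels. The genes that reached a mean of 5 counts entered edgeR 4.0.16 (R 4.3.3, limma 3.58.1), with TMM scaling and a quasi-likelihood test in 1 fit of all 16 libraries, without mouse as a term because the study's methods state none. SEs are the size of the log2 fold change over the square root of F, and edgeR raises some p-values of low counts, so p and interval can differ slightly. All p-values are two-sided and were adjusted within each of the 5 comparisons. The limit given for a count of 0 covers counting error only. Libraries of 1 group were no copies (chi-square per degree of freedom 25.4 or more). The fit was first tested on simulated data.

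The labels give a replicate number, which was read as 1 mouse because the study's methods name 4 independent donors. Deviations from the group means had a mean r of 0.0133 between libraries of the same number (-0.0689 to 0.0858, 24 pairs). Between libraries of different numbers the mean r was -0.00443. The alternatives tried were size factors of DESeq2 or plain library totals, filterByExpr or no count filter, mouse as a block, DESeq2 1.42.0 (the authors' tool, per the labels), the compared libraries only, thinning to the smallest library, and leave-out runs over the 16 libraries and the 4 mice. The members, lists and tests were chosen with earlier results of these data known. All members were described; from each pathway list up to 4 called genes averaging 50 counts or more were named per comparison, by smallest adjusted p, other called genes being named only to list them.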

Additional observations from a re-analysis of the deposited data

Results flagged for a closer look

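Of 37 groups of 4 libraries examined over the members, 4 held a library that stood apart from the other three by Dixon's criterion (its gap over the group's range, above the 95% critical value); chance gives about 1 in 20. Ccn2 in N1-AcSpd HFSCs was lowest in mouse 1, at 1.78 CPM against 3.01 to 3.11 CPM in the other mice (gap over range 0.921), and without that library the difference between N1-AcSpd HFSCs and progenitors was 1.12. Tead1 in N1-AcSpd progenitors was lowest in mouse 4, at 2.34 CPM against 2.72 to 2.77 CPM (0.881). Ccn1 in untreated HFSCs was highest in mouse 4, at 29.3 CPM against 24.1 to 24.8 CPM (0.868). Ankrd1 in untreated progenitors was highest in mouse 4, at 0.0451 CPM, which is its single UMI (1.0). Since the other libraries of that group held 0, the ratio could only be 1.0, and this flag carries no further information. The cause was not tested for any of them.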

How the results depend on the processing

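Of 351 fold changes of members under other settings, 331 kept their direction where called and their side of the threshold, 11 lost and 9 gained a call, and none reversed. Of 900 such fold changes from the 20 leave-out runs 860 did, 37 lost and 3 gained a call, and none reversed. The count of members called in untreated cells, 4 as reported, was 1 without a low-count filter, 2 after thinning to the smallest library and 0 to 4 over the leave-out runs; it was 0 without mouse 3, 1 without mouse 1 or 2 or without the untreated progenitor library of mouse 1 or the untreated HFSC library of mouse 2, and 2 without mouse 4, the untreated progenitor library of mouse 2 or 3, the N1-AcSpd progenitor library of mouse 3 or the untreated HFSC library of mouse 4. In N1-AcSpd cells, 3 as reported, it was 5 with the replicate block and 2 to 4 over the leave-out runs. Treatment and interaction gave 0 members in every setting. The block changed no other call of a member than those of Tead1, Ccn1 and Yap1.

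With library totals, which raise the median of all genes, Tead1 (-0.32, adjusted p = 0.139) and Amotl2 (-0.43, 0.118) in untreated and Wwtr1 (-0.19, 0.0550) in N1-AcSpd cells were no longer called, while Yap1 (0.26 and 0.29) was called in both conditions, Tead4 (0.41) untreated and Ccn1 (0.47) with N1-AcSpd. Tead1 was also lost in DESeq2 (adjusted p = 0.0523) and with the compared libraries only (0.119), which in turn called Ccn1 untreated (0.0301) and Yap1 with N1-AcSpd (0.0230). Without the count filter 32989 genes were adjusted for and Tead1, Tead2 and Amotl2 were lost (0.0798, 0.0612 and 0.0635). All genes called for treatment ranged from 0.0210% to 0.822% in progenitors over the leave-out runs, and DESeq2 called 2.93%. Thinning to the smallest library took Tead2 and Amotl2 above the threshold in untreated cells (0.0628 and 0.0586).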
